A study of Rattus norvegicus with 6 samples.

Results

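A set of 10 genes that are used to mark macrophages and other leukocytes was followed in cultured heart cells: Ptprc, Cd53, Csf1r, Adgre1, Mrc1, Cd14, Cd68, Lyz2, Tyrobp and Fcer1g. They were taken by symbol, and all 10 were found among the 34510 genes of the deposited table, each as a single entry. The libraries came from neonatal rat ventricular cardiomyocytes, primary heart muscle cells isolated from newborn rats. The title Trim28 was carried by 3 libraries, for cells infected with an adenovirus that expresses TRIM28, a corepressor of transcription, and the title Bgal by the other 3. The study asked how TRIM28 acts in ferroptosis, an iron-dependent form of cell death. The labels do not expand the name Bgal, nor do they state the virus of that group, the dose, the time after infection or the number of animals or cultures. The p-values therefore weigh the difference between the groups against the spread among the 3 libraries of a group, which may be technical.

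Macrophages are phagocytes that live in most tissues, the heart included, and many of them depend on signals through the receptor encoded by Csf1r. Their surface receptors for antibodies, lipids and microbes often lack signalling parts of their own and pair with the small adapter proteins encoded by Tyrobp and Fcer1g, which carry a tyrosine motif (the ITAM) that recruits the kinase SYK. The transcription factor PU.1, encoded by Spi1, binds purine-rich sites near many genes of this cell type. Cultures of isolated heart muscle cells can also hold fibroblasts, mural cells, endothelial cells and macrophages.

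Between 26146166 and 34593292 reads were assigned to genes in each library. Expression was given as FPKM, reads scaled by gene length and library total. Trim28 stood at 77.6 to 87.8 FPKM in the Bgal libraries and at 2923, 2890 and 980 FPKM in Trim28 replicates 1, 2 and 3. Heart muscle markers dominated both groups, with Tnnt2, cardiac troponin T, at 4317 to 4583 FPKM in the Bgal libraries and 3721 to 3819 FPKM in the Trim28 libraries. The 10 leukocyte markers summed to 41.9 to 42.9 FPKM in the Bgal libraries and 89.4 to 96.1 FPKM in the Trim28 libraries.

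Of 4 members whose promoter window holds 2 short purine-rich sites of the kind that PU.1 binds, 3 with different roles are shown. Whether PU.1 or these sites had a part in the changes of the genes was not tested. The sequences are RefSeq's on build GRCr8, read in the direction of the gene from 250 bases before to 50 bases after its start. Capitals mark each match to GAGGAA, the PU-box, on either strand, so a match on the opposite strand reads TTCCTC. The Csf1r window is chr18:56834129-56834428 on the plus strand, the Cd68 window chr10:54882392-54882691 on the minus strand and the Mrc1 window chr17:82157475-82157774 on the plus strand.
Csf1r: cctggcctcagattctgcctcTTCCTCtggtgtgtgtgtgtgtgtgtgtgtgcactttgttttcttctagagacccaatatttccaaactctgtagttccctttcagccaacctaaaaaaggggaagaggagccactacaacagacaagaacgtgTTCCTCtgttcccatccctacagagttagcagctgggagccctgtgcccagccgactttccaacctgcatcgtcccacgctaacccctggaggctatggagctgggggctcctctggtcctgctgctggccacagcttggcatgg
Cd68: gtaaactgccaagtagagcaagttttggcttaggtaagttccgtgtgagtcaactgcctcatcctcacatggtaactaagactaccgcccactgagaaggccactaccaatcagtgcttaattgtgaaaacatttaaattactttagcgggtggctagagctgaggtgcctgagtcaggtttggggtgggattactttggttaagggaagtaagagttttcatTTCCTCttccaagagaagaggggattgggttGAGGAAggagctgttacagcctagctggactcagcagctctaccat
Mrc1: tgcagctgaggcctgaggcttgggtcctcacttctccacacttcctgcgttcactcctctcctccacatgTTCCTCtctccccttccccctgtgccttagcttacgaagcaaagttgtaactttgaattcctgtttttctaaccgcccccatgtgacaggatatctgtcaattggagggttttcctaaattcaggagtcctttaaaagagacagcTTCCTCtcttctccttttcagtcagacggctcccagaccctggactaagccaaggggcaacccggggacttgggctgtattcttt

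Promoters of 8 members were matched by symbol, and all 8 held at least 1 PU-box, against 27.6% of all 33469 windows of 300 bases. Cd14, Cd68, Csf1r and Mrc1 held 2, as did 4.83% of all windows with 2 or more. Counted in bases from the start, the matches lay at -229 and -95 in Csf1r, at -27 and 4 in Cd68 and at -180 and -35 in Mrc1. A second pattern, TTGCNNAA, which C/EBP factors bind, was found in Adgre1 and Lyz2, 2 of the 8, against 10.6% of all windows, and shares no letters with the PU-box matches of these 2 genes. A match describes the letters of the window and is not a measured binding site.

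All 10 markers were higher in the Trim28 libraries. Every Trim28 value of each gene lay above every Bgal value, which held for 26.0% of all 14808 tested genes. The ratio of mean FPKM ran from 1.75-fold for Cd53 to 6.95-fold for Adgre1, with a median of 2.31-fold. In limma on log2(FPKM + 1), with p-values adjusted over all tested genes and a threshold of 0.05, 10 of 10 passed as higher and 0 as lower, while 20.1% of all tested genes were called higher and 21.1% lower. The markers were chosen with earlier results of these data known, so setting their count beside these shares is a description and not a test. The median log2 difference of the markers was 0.82, against -0.02 over all tested genes. Adgre1 reached the filter of 0.5 FPKM in 3 libraries through the Trim28 group alone, so it could only have been tested as a gene that differs. With no filter on low values, 10 of 10 again rose, against 11.7% of 23443 genes called higher and 11.6% called lower. In these bulk libraries, more leukocytes in a culture and more of these transcripts per cell cannot be told apart.

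**Figure D1:**
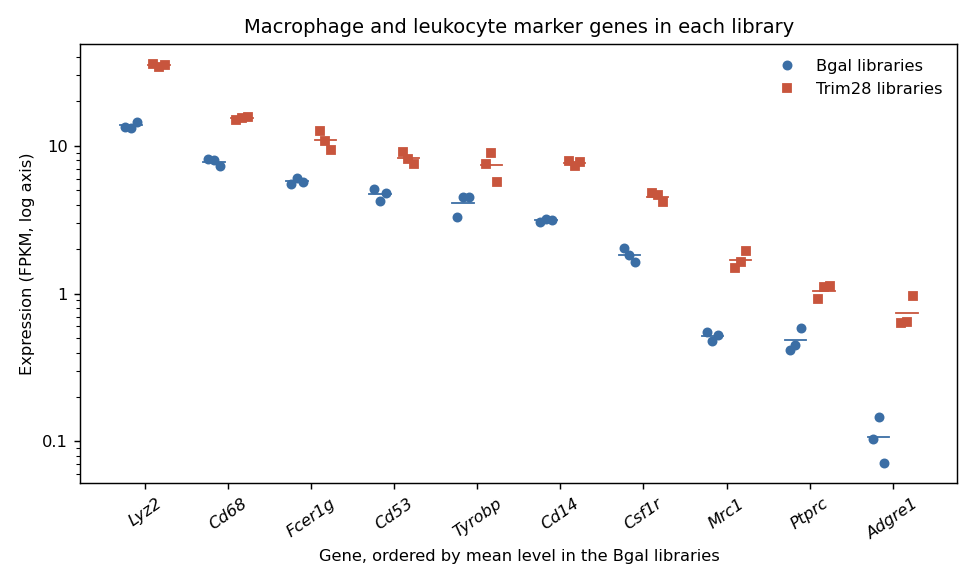
Expression in FPKM on a log axis for each of the 10 marker genes, with 1 point per library and a line at the mean of the 3 libraries of a group. Trim28 libraries (squares) lie above Bgal libraries (circles) for every gene, from Lyz2 at 13.8 and 35.2 FPKM on average to Adgre1 at 0.107 and 0.746 FPKM.

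Ptprc encodes CD45, a phosphatase carried by nearly all leukocytes (ENSRNOG00000000655, chromosome 13, 55061562 to 55173692, minus strand; coordinates are those of the deposited table, whose build was not given in the sources used here). It was among the lowest markers, at 0.418, 0.450 and 0.588 FPKM in the Bgal libraries and 0.923, 1.10 and 1.12 FPKM in the Trim28 libraries. The groups did not overlap, and Bgal replicate 3 was the closest to the Trim28 libraries. These values rested on 75, 66 and 102 reads and on 130, 146 and 163 reads. The means of 0.485 ± 0.0904 and 1.05 ± 0.111 FPKM (SD, n = 3 each) differed 2.16-fold, with a log2 difference of 0.47 (SE 0.11) and a limma adjusted p of 0.0143. The call was lost without Bgal replicate 1 (limma adjusted p = 0.0531, range 0.00101 to 0.0531 over the alternatives), while the direction stayed.

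Cd53, a tetraspanin of leukocyte membranes (ENSRNOG00000017874, chromosome 2, 209489279 to 209537087), stood about an order of magnitude above Ptprc. It measured 5.15, 4.24 and 4.81 FPKM in the Bgal libraries and 9.13, 8.17 and 7.55 FPKM in the Trim28 libraries. The ratio of 1.75-fold was the smallest of the 10, with a log2 difference of 0.70 (SE 0.10, limma adjusted p = 0.00135). Both pan-leukocyte genes thus rose, from different levels.

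Csf1r, the receptor for the macrophage growth factors CSF1 and IL-34 (ENSRNOG00000018414, chromosome 18, 56414488 to 56458300), measured 2.04, 1.82 and 1.64 FPKM in the Bgal libraries and 4.82, 4.65 and 4.16 FPKM in the Trim28 libraries. The lowest Trim28 library was more than 2 FPKM above the highest Bgal library. Its mean rose 2.48-fold, by 0.97 on the log2(FPKM + 1) scale (SE 0.10, limma adjusted p = 0.000394).

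Adgre1 encodes the adhesion receptor known in mice as F4/80 (ENSRNOG00000046254, chromosome 9, 9431860 to 9585865). It was the lowest marker, at 0.103, 0.148 and 0.0712 FPKM in the Bgal libraries, from 12, 14 and 8 reads. The Trim28 libraries held 0.636, 0.642 and 0.960 FPKM, from 58, 55 and 90 reads. The mean ratio of 6.95-fold was the largest of the 10, but its log2(FPKM + 1) difference was only 0.65 (SE 0.13, limma adjusted p = 0.00581), since the added 1 compresses such low values. The related gene Adgre4 stood at 0.0241 and 0.0263 FPKM and Adgre5 at 18.2 and 15.8 FPKM on average in the Bgal and Trim28 libraries.

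Mrc1, the mannose receptor of tissue macrophages and of some endothelial cells (ENSRNOG00000018251, chromosome 17, 81352700 to 81433743), was also low. It measured 0.548, 0.480 and 0.528 FPKM in the Bgal libraries and 1.49, 1.64 and 1.95 FPKM in the Trim28 libraries, a 3.26-fold ratio of means. The 3 Bgal values lay close together, and the lowest Trim28 value was well above them (log2 difference 0.82, SE 0.11, limma adjusted p = 0.00123). An entry for the microRNA gene Mir511 lies inside Mrc1 and was listed at 0 in every library. No other member overlapped another annotated gene.

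Cd14, a receptor that passes bacterial lipopolysaccharide to Toll-like receptor 4 (ENSRNOG00000017819, chromosome 18, 29560365 to 29562153), had little spread within the groups. It measured 3.06, 3.18 and 3.15 FPKM in the Bgal libraries and 7.89, 7.34 and 7.82 FPKM in the Trim28 libraries. The coefficient of variation was 2.00% and 3.90%, against a 2.45-fold difference of means (log2 difference 1.07, SE 0.07, limma adjusted p = 9.42e-05).

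Lyz2, the lysozyme secreted by macrophages and neutrophils (ENSRNOG00000005825, chromosome 7, 60335969 to 60341264), had the highest level of the 10 per unit of length. Its values were 13.5, 13.3 and 14.6 FPKM in the Bgal libraries and 35.9, 34.5 and 35.1 FPKM in the Trim28 libraries, 2.55-fold apart. The log2 difference of 1.29 (SE 0.05, limma adjusted p = 1.8e-05) was the largest on the log2(FPKM + 1) scale. The similar lysozyme entry Lyc2 averaged 0.0327 and 0.0619 FPKM, so few reads were assigned to that copy.

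Cd68, a glycoprotein of lysosomes and endosomes that is abundant in phagocytes but not restricted to them (ENSRNOG00000037563, chromosome 10, 56268720 to 56270640), came second in level. It measured 8.20, 7.99 and 7.29 FPKM in the Bgal libraries and 15.02, 15.4 and 15.7 FPKM in the Trim28 libraries. The 3 Trim28 values differed by less than 1 FPKM, and the means were 1.96-fold apart (log2 difference 0.89, SE 0.06, limma adjusted p = 0.000109).

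Tyrobp, the adapter DAP12 of receptors such as TREM2 (ENSRNOG00000020845, chromosome 1, 88875375 to 88879303), was the most variable of the better expressed markers. Its values were 3.31, 4.51 and 4.54 FPKM in the Bgal libraries and 7.55, 8.91 and 5.72 FPKM in the Trim28 libraries. Trim28 replicate 3 came closest to the Bgal range. On a gene length of 603 bases, 71 to 141 reads lay behind each value. The ratio was 1.79-fold (log2 difference 0.70, SE 0.16, limma adjusted p = 0.0117).

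Fcer1g, the shared gamma chain of antibody receptors (ENSRNOG00000024159, chromosome 13, 89601896 to 89606326), moved in the same way. It measured 5.53, 6.11 and 5.67 FPKM in the Bgal libraries and 12.7, 10.8 and 9.33 FPKM in the Trim28 libraries. Here too Trim28 replicate 3 was the lowest of its group, though clear of all Bgal values. The ratio was 1.90-fold (log2 difference 0.81, SE 0.11, limma adjusted p = 0.00117).

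Because several markers were low, the reads behind each FPKM value were recovered and compared with limma-voom, which adds far less than 1 unit to each value. Without a filter, 10 of 10 markers again passed as higher, against 13.2% of 23443 genes called higher and 13.4% called lower. The median log2 difference of the markers was 1.19, against 0.04 over all genes. Adgre1 differed by 2.79 (95% confidence interval 1.85 to 3.74, limma-voom adjusted p = 0.000438) and Mrc1 by 1.68 (1.26 to 2.10), while Cd53 differed by 0.79 (0.50 to 1.07). The intervals of Adgre1 and Cd53 did not meet, although the difference between the 2 genes was not itself tested. Ptprc differed by 1.10 (0.64 to 1.56), more than double its value on the log2(FPKM + 1) scale. Tyrobp had the widest relative interval, 0.82 (0.31 to 1.34, limma-voom adjusted p = 0.0215).

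**Figure D2:**
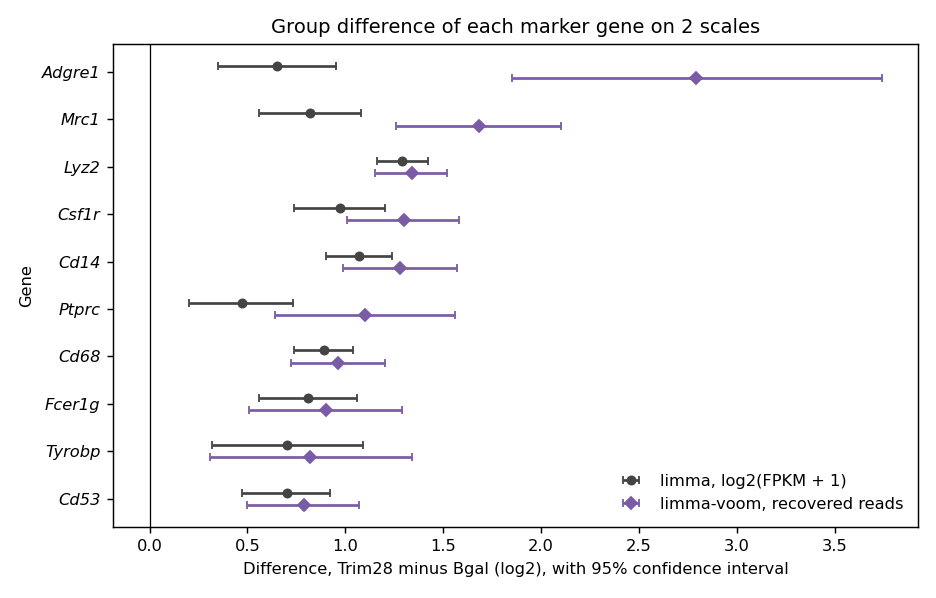
Log2 difference between Trim28 and Bgal libraries for each marker gene, with its 95% confidence interval, from limma on log2(FPKM + 1) (circles) and from limma-voom on recovered reads without a filter (diamonds). All intervals lie above 0, and the scales part most for Adgre1 (0.65 and 2.79) and Mrc1 (0.82 and 1.68), which have low levels.

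Of the 10 shares that the markers took of their summed FPKM, 4 were higher in every Trim28 library than in every Bgal library, 1 was lower and 5 overlapped. No such count was made for other gene sets, so it has no background to be read against. The shares of a library depend on each other, since they are parts of 1 sum. Lyz2 made up 31.4% to 34.1% of the summed marker FPKM in the Bgal libraries and 37.0% to 39.3% in the Trim28 libraries. The share of Cd53 went the other way, from 10% to 12.3% in the Bgal libraries to 8.44% to 9.51% in the Trim28 libraries. Its mean FPKM itself rose 1.75-fold, the smallest ratio of the 10. Mrc1 took 1.14% to 1.31% and 1.55% to 2.18%, and Adgre1 0.166% to 0.350% and 0.662% to 1.07%. The share of Cd14 was also higher without overlap, at 7.32% to 7.55% and 7.89% to 8.74%. The shares of Ptprc, Cd68, Csf1r, Tyrobp and Fcer1g overlapped.

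Within the Trim28 group the markers did not share one order of libraries. Replicate 3, the library with the lowest Trim28 level, was lowest for 4 markers and highest for 4, and replicate 1 was lowest for 4 and highest for 5. Over all tested genes, replicate 3 was lowest for 36.5% and highest for 36.5%, and replicate 1 for 31.6% and 30.5%. Csf1r, Tyrobp, Fcer1g and Cd53 were lowest in replicate 3, and Ptprc, Cd68, Mrc1 and Adgre1 were highest there. Relative to the Bgal mean, Tyrobp stood at 1.83, 2.16 and 1.39 in Trim28 replicates 1, 2 and 3, and Fcer1g at 2.20, 1.86 and 1.62. Adgre1 stood at 5.93, 5.98 and 8.94, and Mrc1 at 2.88, 3.16 and 3.76. Lyz2, Cd14 and Cd68 were almost level, with replicate 3 at 0.999, 1.03 and 1.03 times the mean of the other two. Genes of the interferon response, 16 in the list used, summed to 590, 579 and 380 FPKM in the same 3 libraries and to 211 to 241 FPKM in the Bgal libraries. Ifi27 alone held 381, 369 and 248 FPKM of the Trim28 sums and 119 to 123 FPKM of the Bgal sums. In limma 11 of the 16 rose, 0 fell and 5 did not pass, with a median log2 difference of 0.84, while 20.1% of all tested genes were called higher. With no filter 8 rose and 0 fell. Over 14 alternatives the Ifit1 call was lost in 8, the Oas1a call in 7 and the Usp18 call in 6 (limma adjusted p up to 0.136). The Isg15 call was lost in 3 and the Mx2 call in 2. Of the genes that did not pass, Ifit3, Oasl, Stat2 and Rsad2 passed without Trim28 replicate 3. The relation between the Trim28 level and the markers within the group was not tested.

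**Figure D3:**
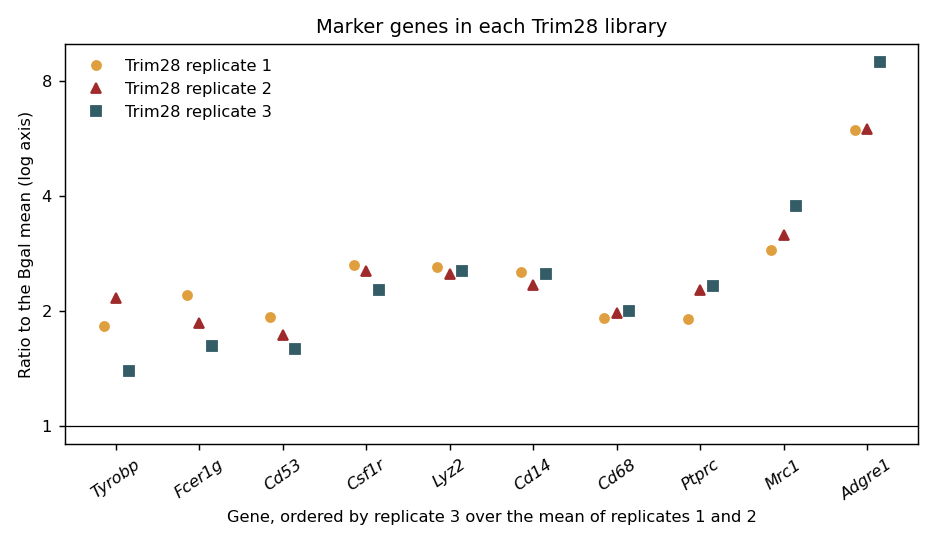
Ratio of each Trim28 library to the mean of the Bgal libraries, on a log axis, for the 10 marker genes ordered by the position of replicate 3. Tyrobp, Fcer1g, Cd53 and Csf1r are lowest in replicate 3 and Ptprc, Mrc1, Cd68 and Adgre1 highest, while all points lie above 1.

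Other genes of macrophages and monocytes were mostly low, and most of those tested rose. Of 30 symbols 26 were found and 12 were tested, of which 8 rose, 0 fell and 4 did not pass. Msr1 and Folr2 were tested through the Trim28 libraries alone. With no filter, 10 of 25 rose and 0 fell in limma, and 12 rose and 0 fell in limma-voom. Cybb, the catalytic subunit of the phagocyte oxidase, rose from 4.40 ± 0.133 to 9.41 ± 0.290 FPKM (limma adjusted p = 0.000105). Lcp1, an actin bundler of leukocytes, rose from 1.43 ± 0.116 to 2.95 ± 0.388 FPKM. Folr2, a folate receptor of tissue macrophages, rose from 0.371 ± 0.0394 to 1.25 ± 0.182 FPKM, and Trem2, a lipid receptor that signals through the Tyrobp adapter, from 0.587 ± 0.0970 to 1.63 ± 0.253 FPKM (limma adjusted p = 0.00257 and 0.00292).

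Some genes counted as typical of macrophages had few reads or did not pass. They were picked here after their values were seen. Spi1, which encodes PU.1, stood at 2.03, 2.23 and 2.07 FPKM in the Bgal libraries and 2.37, 2.08 and 2.34 FPKM in the Trim28 libraries. Its groups overlapped, and it was not called, with a log2 difference of 0.07 (95% confidence interval -0.15 to 0.28) and a limma adjusted p of 0.582. For C1qa, a chain of complement C1q, 2, 8 and 4 Bgal reads stood against 14, 17 and 22 Trim28 reads (limma-voom adjusted p = 0.0147 without a filter). Its partner chains had fewer still, with 0, 2 and 0 reads against 4, 2 and 0 for C1qb, and 0, 0 and 0 against 0, 4 and 2 for C1qc. Cx3cr1, the fractalkine receptor, had no read in any library. Cd163, a haemoglobin scavenger receptor, counted 4, 2 and 0 Bgal reads against 18, 1 and 14 Trim28 reads. Aif1, which encodes the macrophage protein IBA1, counted 6, 7 and 2 against 25, 5 and 10. Mertk, Lyve1 and Vsig4 had lower means in the Trim28 libraries, and none of them was called. Mertk stood at 1.11 ± 0.155 and 1.01 ± 0.124 FPKM (limma adjusted p = 0.652). Lyve1 counted 14, 13 and 22 Bgal reads against 11, 4 and 10 Trim28 reads, and Vsig4 0, 0 and 2 against 0, 0 and 0.

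**Figure D4:**
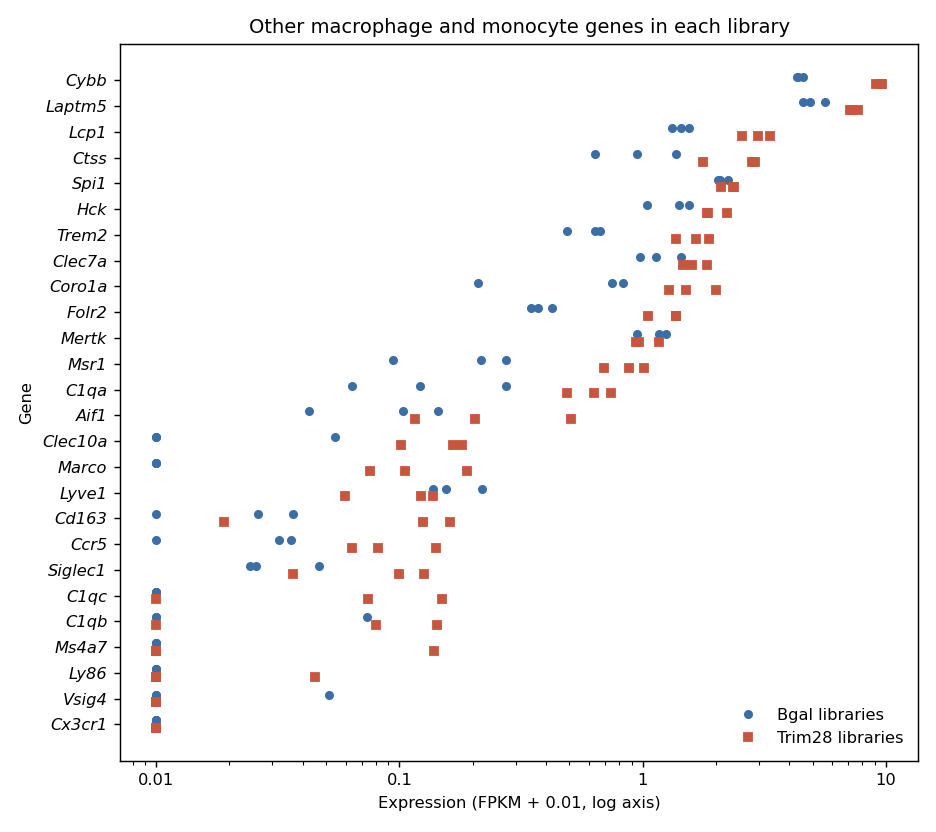
Expression of 26 further macrophage and monocyte genes in each library, as FPKM + 0.01 on a log axis, so that a value of 0 is drawn at 0.01. Cybb and Lcp1 are separated between Bgal (circles) and Trim28 (squares), Spi1 overlaps near 2 FPKM, and the genes at the bottom hold few reads or, for Cx3cr1, none.

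Among growth factors, receptor chains and a chemokine that act on these cells, 5 of 8 listed genes were tested, 4 rose and 0 fell. Those that rose were the growth factor genes Csf1 and Il34, the receptor chain gene Csf2rb and the chemokine gene Ccl2. The growth factor genes Csf2 and Csf3 stayed below the filter. Csf1, the main ligand of the Csf1r receptor, rose from 23.8 ± 1.40 to 46.9 ± 1.46 FPKM (SD, n = 3 each, limma adjusted p = 6.5e-05). It was therefore far more abundant per unit of length than its receptor in both groups. Il34, the other ligand, rose from 0.422 ± 0.161 to 1.02 ± 0.234 FPKM (limma adjusted p = 0.0269), a call that was lost without Bgal replicate 2 or 3 or Trim28 replicate 1 or 2 (limma adjusted p up to 0.0858). Csf2rb, the shared beta chain of the GM-CSF receptor, rose 3.10-fold, from 4.49 ± 0.178 to 13.9 ± 1.11 FPKM, whereas the alpha chain gene Csf2ra, with means of 3.37 ± 0.319 and 4.12 ± 0.385 FPKM, missed the threshold (limma adjusted p = 0.1). Ccl2, a chemokine that attracts monocytes, rose from 80.8 ± 7.49 to 138 ± 16.5 FPKM.

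Among receptors, kinases and phosphatases that work with or beside the Tyrobp and Fcer1g adapters, some rose and none fell. Of 14 listed genes 10 were tested, 5 rose and 0 fell. Inpp5d, which did not pass, was tested through the Trim28 libraries alone. The antibody receptor gene Fcgr1a rose from 0.657 ± 0.175 to 2.15 ± 0.616 FPKM, and Fcgr2b, an inhibitory antibody receptor that needs no such adapter, from 0.359 ± 0.128 to 1.42 ± 0.216 FPKM (limma adjusted p = 0.00438 and 0.00215). Trem1 and Trem2, which use the Tyrobp adapter, were the other receptors that rose, and Clec7a, a receptor for fungal glucans with a tyrosine motif of its own, did not pass (limma adjusted p = 0.111). The Trem1 call was lost in 5 of 14 alternatives, with no filter and without Bgal replicate 1 or 3 or Trim28 replicate 1 or 2 (limma adjusted p up to 0.0888). Ptpn6, the phosphatase SHP-1 of blood cells, rose from 0.904 ± 0.105 to 1.94 ± 0.0222 FPKM. Syk, the kinase that binds the ITAM, stood at 0.511 ± 0.0812 and 0.761 ± 0.0756 FPKM (limma adjusted p = 0.155, range 0.0353 to 0.356 over 13 alternatives). It passed as higher in limma-voom on the filtered genes and with no intensity trend. Lyn, another kinase, and Plcg2, a phospholipase, did not pass. The difference between receptors and kinases was not tested.

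Partners of Cd14 were mixed. Of 12 listed symbols 9 were found and 8 tested, of which 3 rose and 1 fell. Lbp, the protein that loads lipopolysaccharide onto Cd14, rose from 5.30 ± 0.599 to 12.6 ± 1.00 FPKM (limma adjusted p = 0.000196). Tlr2 and Tlr4, receptors for bacterial lipids, rose from 3.38 ± 0.250 to 5.27 ± 0.590 FPKM and from 0.875 ± 0.0876 to 1.46 ± 0.265 FPKM. The signalling genes downstream, Myd88, Irak4, Traf6 and Ticam2, did not pass, and Irak1 fell from 34.9 ± 0.474 to 30.6 ± 1.59 FPKM (limma adjusted p = 0.0237). The Irak1 call was lost in 6 of 14 alternatives, with no intensity trend and without Bgal replicate 1, 2 or 3 or Trim28 replicate 1 or 2 (limma adjusted p range 0.0131 to 0.0804). The Tlr4 call was lost in 7 of 14, with no filter, with the replicate block and without Bgal replicate 1, 2 or 3 or Trim28 replicate 2 or 3 (limma adjusted p up to 0.1).

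Most markers of other leukocytes had few or no reads, with Kit, Zbtb46 and Itgax as the better expressed exceptions. The summed level of 8 T cell markers was 0.878 to 1.27 FPKM in the Bgal libraries and 1.08 to 1.63 FPKM in the Trim28 libraries, and Cd3e was listed at 0 in every library. Cd4, which rat macrophages also carry, made up much of that sum, with means of 0.494 ± 0.0699 and 0.875 ± 0.139 FPKM that missed the threshold (limma adjusted p = 0.0575). The B cell markers summed to at most 0.168 and 0.264 FPKM, with Ms4a1 at 0, and the NK cell markers to at most 0.0872 and 0.318 FPKM, with Ncr1, Nkg7 and Gzmb at 0. Among neutrophil markers, S100a9 and Ltf were at 0 throughout, and among mast cell markers Fcer1a and Cma1 were. Kit, the receptor for stem cell factor, which is not restricted to mast cells, had means of 6.07 ± 0.838 and 5.38 ± 0.192 FPKM and missed the threshold. Of the dendritic cell genes, Zbtb46 stood at 1.38 ± 0.164 and 1.97 ± 0.335 FPKM and Itgax at 0.626 ± 0.0834 and 0.605 ± 0.0630 FPKM, and neither passed. Hence 0 of the 5 tested genes in these lists passed in limma, 2 of them, Cd4 and Zbtb46, had an unadjusted p under 0.05, and limma-voom without a filter called 0 genes of these lists. Some alternatives did call 1 of them higher: Cd4 with no filter and with no intensity trend, Zbtb46 with no intensity trend, and Camp, a neutrophil peptide gene, without Trim28 replicate 2. Among erythroid and platelet genes 1 was tested and rose: Pf4, a platelet chemokine gene that some macrophages also express, from 13.7 ± 2.04 to 43.1 ± 4.23 FPKM (limma adjusted p = 0.000112). In limma-voom without a filter 2 of 6 rose, Pf4 and the platelet gene Gp9, which had 1 read in all Bgal libraries and 24 in all Trim28 libraries (limma-voom adjusted p = 0.00836).

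Markers of other heart cells moved in the same libraries. Of 10 fibroblast markers 8 rose and 0 fell, with summed levels of 451 to 471 FPKM in the Bgal libraries and 800 to 869 FPKM in the Trim28 libraries. Col1a1 alone held 182 to 208 FPKM of the Bgal sums and 380 to 395 FPKM of the Trim28 sums. Of 10 mural cell markers 8 rose and 1 fell, with sums of 808 to 1058 and 1646 to 1744 FPKM. Acta2 alone held 564 to 765 FPKM of the Bgal sums and 1284 to 1384 FPKM of the Trim28 sums. Abcc9, the marker that fell, went from 42.5 ± 3.31 to 21.5 ± 0.469 FPKM (limma adjusted p = 9.42e-05). Kcnj8, 1 of the 8 that rose, reached the filter through the Trim28 libraries alone. Rgs5, the marker that did not pass, had means of 0.936 ± 0.236 and 1.245 ± 0.168 FPKM (limma adjusted p = 0.226). For these lists too, more cells of a type and more of these transcripts per cell cannot be told apart. Of 9 cardiomyocyte markers 2 rose and 5 fell, with sums of 15100 to 16140 and 13370 to 13720 FPKM. The count that fell was 3 with no filter and 3 without Trim28 replicate 1 or 2, as Tnnt2 and Myl3, troponin T and a myosin light chain, lost their calls. Over 14 alternatives the Tnnt2 call was lost in 3 and the Myl3 call in 9 (limma adjusted p up to 0.169 and 0.223). The 9 endothelial markers found summed to 13.8 to 14.5 and 14.7 to 15.4 FPKM, with 2 of 4 tested rising and 1 falling. The other 5 were not tested. Kdr, which had the highest Bgal mean of the list, fell from 8.07 ± 0.642 to 6.06 ± 0.276 FPKM (limma adjusted p = 0.00934). Flt1 rose from 0.888 ± 0.177 to 2.48 ± 0.264 FPKM and Tek from 1.23 ± 0.0900 to 2.14 ± 0.350 FPKM, so the near-level sums hold opposite changes. No fibroblast, mural, endothelial or cardiomyocyte marker was at 0 in every library. The part of these changes in the rise of the leukocyte markers was not tested.

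**Figure D5:**
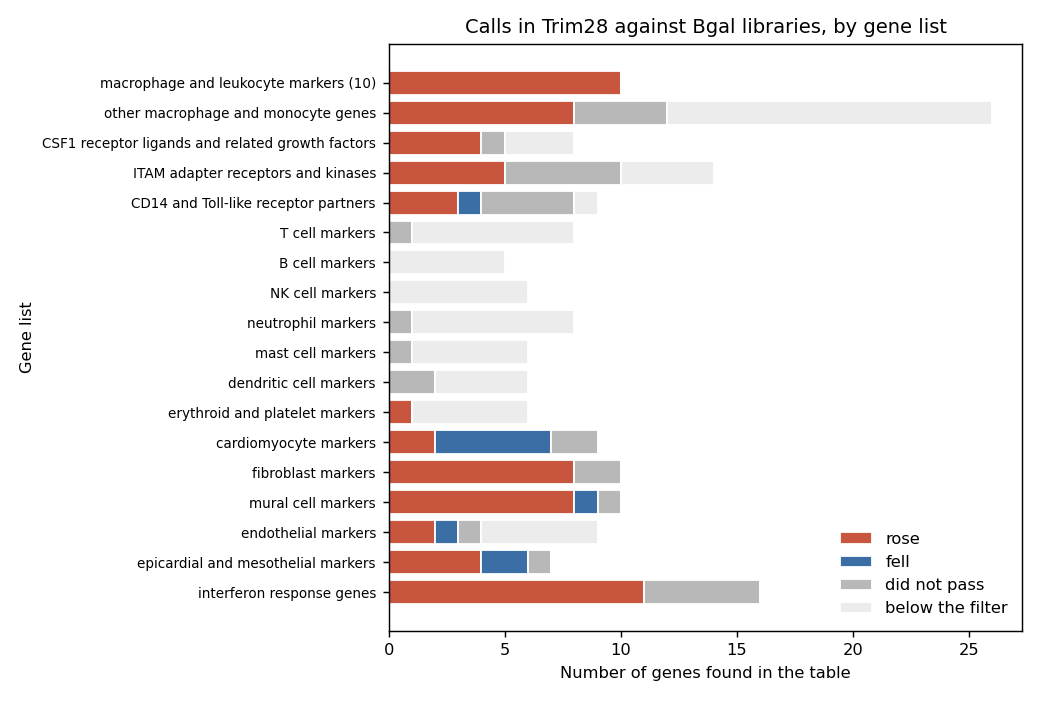
Number of genes in each list that rose, fell, did not pass the limma threshold or stayed below the filter, by gene list. All 10 macrophage and leukocyte markers rose, as did 8 of 10 fibroblast and 8 of 10 mural cell markers, while most T, B, NK and mast cell markers stayed below the filter.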

How the data were processed

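The authors deposited 1 table of FPKM values, per the file headers, with 1 column for each of the 6 libraries, and HISAT2 2.0.5 and DESeq2 are named in the submitters' processing notes. Neither the build and annotation nor the counter and its strand setting were given in the sources used here. Libraries were strand-marked poly(A) libraries read in pairs, per the labels' protocols. Groups came from the titles. Reads per gene were recovered from FPKM and gene length: 99.94% of values above 0 came out whole, within 0.01. Whether such a read stands for a fragment or a mate is unknown. FPKM depends on the library total, so genes that take many reads lower all others.

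Genes that reached 0.5 FPKM in 3 or more libraries were compared as log2(FPKM + 1) with limma 3.58.1 in R 4.3.3, two-sided, with an intensity trend and Benjamini-Hochberg adjustment over 14808 genes. Folds are ratios of mean FPKM. The fit was tested on simulated data. Each library was counted as 1 replicate. Libraries of a group differed beyond sampling noise (chi-square per degree of freedom 6.77 to 18.1), which does not show that they came from separate cultures. Alternatives were another pseudocount, filters, median-of-ratios scaling, limma-voom, no trend, a replicate block and each library left out. Limma-voom without a filter was added after seeing the data. Named genes are all 10 members, Trim28, up to 4 tested genes of each list with the smallest p-values, members of other leukocyte lists at 0 throughout and up to 2 genes per list called against its trend; a few more are named as examples of counts. The members and lists were chosen with earlier results of these data known. Promoter sequences are RefSeq's (GRCr8). The table had 0 columns of other samples.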

Additional observations from a re-analysis of the deposited data

How the results depend on the processing

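All 10 marker genes kept their direction under each of the 14 alternatives that could test them, and 137 of 138 single results kept their call; the exception was Ptprc without Bgal replicate 1. Leaving out 1 library at a time gave 9 to 10 markers called higher. A filter of 1 FPKM tested 8 markers, all called higher. Mrc1 reached that filter through the Trim28 libraries alone, so there it could only have been tested as a gene that differs. Whether Trim28 and Bgal libraries of the same number form pairs is not known. Deviations of same-numbered libraries correlated at -0.016, 0.134 and 0.009, and those of the other combinations at -0.09 to 0.084. With 3 libraries per group these values cannot exclude a pairing. With the replicate block 10 markers were called higher. Over all tested genes 2744 were then called higher and 2922 lower, against 2971 and 3126 without the block. The count of genes called lower over all other lists together was 10. It was 6 with no filter and 5 to 8 when 1 library was left out, lowest without Trim28 replicate 2 and 6 without Bgal replicate 2 or 3. The cause was not tested. Depth limits Adgre1, whose Bgal values rest on 8 to 14 reads, and the C1q genes, which rest on fewer than 25.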
